A study of Homo sapiens with 40 samples.

Results

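The comparison described here set polyA RNA from the nucleus of undifferentiated H1 cells against polyA RNA from their cytoplasm. H1 is an established human embryonic stem cell line. The cells were wild type, kept in mTeSR1 medium on matrigel, and taken on day 0, before any mesoderm differentiation. Each fraction had 2 libraries, so the comparison used 4 of the 40 libraries of the series. The other 36 libraries held total RNA of successive extracts and of unfractionated cells. The labels describe a fractionation kit with 5 extracts, but do not say how the fractions named nucleus and cytoplasm were made. Replicates are numbered, and nothing says that they were separate cultures, so p-values measure the spread between these libraries, which may be technical.

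Members were chosen by library label and by level: of 58336 genes in the polyA table, 16667 reached 1 TPM (transcripts per 1000000, a share of the library scaled for gene length) in at least 2 of the 4 libraries and were tested. Nuclear libraries held an estimated 14449217 and 15014832 reads, and cytoplasmic libraries 16073467 and 17270359. A read on a 1 kb transcript was worth 0.356 and 0.343 TPM in the nucleus and 0.242 and 0.231 TPM in the cytoplasm. Pearson's r between replicates was 0.989 in nucleus and 0.991 in cytoplasm, and between a nuclear and a cytoplasmic library it was 0.892 to 0.899. A TPM value or share is followed by ± its SD over the 2 libraries of a fraction, and a log2 value by ± its standard error. Adjusted p-values come from limma with Benjamini-Hochberg adjustment over all tested genes. A log2 value is nucleus over cytoplasm on the log2(TPM + 1) scale, which understates the change of genes near 1 TPM.

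An mRNA is transcribed, capped, spliced and given a poly(A) tail in the nucleus, and is then exported through nuclear pores to be translated. Some long noncoding RNAs (lncRNAs) stay in the nucleus, where MALAT1 lies in nuclear speckles and NEAT1 builds paraspeckles. Some mRNAs are held there with introns that are spliced late, called detained introns. MicroRNA host transcripts are cut in the nucleus to release a hairpin, whose mature strand finds its targets through its seed, bases 2 to 8.

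The host transcript of the miR-17-92 cluster, MIR17HG, had the largest fold among the microRNA hosts, and its 6 main mature microRNAs are given here because they are what this nuclear RNA is known to give rise to. Sequences are from RefSeq (GRCh38.p14, chromosome 13, plus strand, written 5′ to 3′), and capitals mark the seed. They are grouped by seed, miR-17 and miR-20a first, then miR-18a, then miR-19a and miR-19b, then miR-92a.
hsa-miR-17-5p: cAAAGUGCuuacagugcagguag
hsa-miR-20a-5p: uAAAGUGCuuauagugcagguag
hsa-miR-18a-5p: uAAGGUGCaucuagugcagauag
hsa-miR-19a-3p: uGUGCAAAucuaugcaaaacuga
hsa-miR-19b-3p: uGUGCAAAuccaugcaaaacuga
hsa-miR-92a-3p: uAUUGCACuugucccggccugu
MIR222HG, MIR34AHG and MIR205HG came next in fold among the hosts, and they hold these mature microRNAs (chromosome X for the first pair, chromosome 1 for the others). The first pair shares a seed.
hsa-miR-221-3p: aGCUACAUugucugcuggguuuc
hsa-miR-222-3p: aGCUACAUcuggcuacugggu
hsa-miR-34a-5p: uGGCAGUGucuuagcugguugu
hsa-miR-205-5p: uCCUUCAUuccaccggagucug
All 10 lie inside their host on its strand. Each precursor gene was listed at 0 TPM in all 4 libraries, so these data describe the hosts and not the microRNAs.

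MALAT1 had the largest fold of all lncRNAs. Its mature 3′ end is known to be made by RNase P cleavage and not by polyadenylation, and it carries a genome-encoded run of A that pairs with U-rich stretches before it. That end is shown from the longest annotated transcript (GENCODE 29, GRCh38, chr11:65506012-65506116, plus strand), with the longest run of A, 13 bases, in capitals.
MALAT1: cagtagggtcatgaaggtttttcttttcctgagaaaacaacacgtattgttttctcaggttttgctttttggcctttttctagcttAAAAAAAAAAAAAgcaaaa
Which molecules of MALAT1 were captured with polyA RNA was not tested.

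By summed TPM, the nucleus held more lncRNA and less RNA of the mitochondrial genome than the cytoplasm. LncRNA genes took 4.21% and 4.21% of the nuclear libraries, against 1.65% and 1.62% of the cytoplasmic ones. Small and structured RNA took 0.379% and 0.408% of the nucleus and 0.111% and 0.113% of the cytoplasm, and pseudogenes 2.24% and 2.26% against 1.86% and 1.82%. The mitochondrial genome took 7.37% and 7.24% of the nuclear libraries, against 15.5% and 15.2% of the cytoplasmic ones. No class overlapped between fractions, but 2 libraries against 2 cannot give an exact permutation p under 0.333. Protein-coding RNA of the nuclear genome took 85.5% ± 0.0551 of the nucleus and 81.1% ± 0.263 of the cytoplasm, and this order turned round when the mitochondrial genome was left out of the totals (92.3% ± 0.0289 of the nucleus and 95.7% ± 0.0695 of the cytoplasm).

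**Figure D1:**
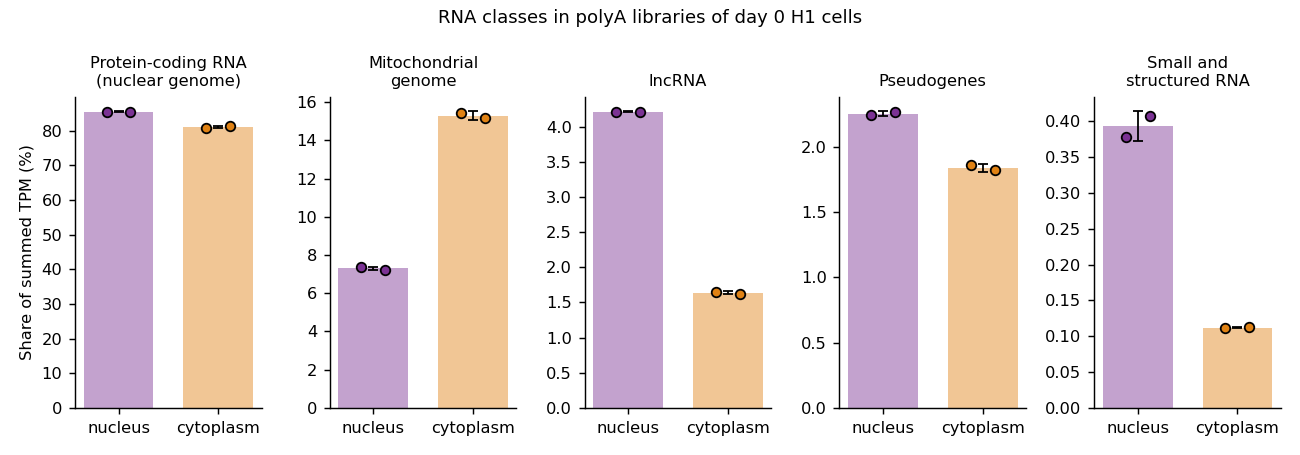
Share of summed TPM (%) taken by 5 RNA classes in polyA libraries of nucleus and cytoplasm, each panel with its own axis from 0. Bars are means, whiskers the SD and points the 2 libraries per fraction; lncRNA stands near 4.21% in nucleus and 1.64% in cytoplasm, and the mitochondrial genome near 7.30% and 15.3%.

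On the TPM scale more genes were higher than lower in nucleus, a split that turned round when libraries were shifted to a common median. Of the 16667 genes tested, 5005 (30.0%) were higher and 1037 (6.22%) lower in nucleus, at an adjusted p under 0.05 and a log2 fold change of at least 1. The median gene stood at a log2 value of 0.50. Shifting the libraries to a common median moved it to -0.06 and gave 2397 genes higher (14.4%) and 2809 lower (16.9%), so each group below is read against the median of 0.50. TPM cannot tell fewer molecules per cell from fewer cells or a larger pool of other RNA.

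Gene types differed in their medians. Genes of most noncoding types lay near the filter, with a median level of 3.15 TPM for lncRNAs and 2.99 TPM for pseudogenes against 26.9 TPM for protein-coding genes, and a gene can pass it through the 2 nuclear libraries alone. Between 17121 and 17134 genes reached 1 TPM in a nuclear library and between 14569 and 14584 in a cytoplasmic one, so the medians and counts of these types are a description. The median log2 value of 12963 protein-coding genes was 0.35, which the common median turned to -0.21, with 3013 higher and 890 lower. LincRNAs had a median of 1.17 over 1202 tested genes, with 662 higher and 14 lower (382 and 61 under the common median). Antisense genes stood at 0.99, with 371 higher and 14 lower of 754 (202 and 48 under the common median), and processed transcripts at 1.23, with 75 higher and 2 lower of 118. All lncRNA types together gave 1154 higher and 30 lower of 2161, and under the common median 650 higher and 117 lower. TEC genes, a label for transcripts whose coding status is still to be checked, stood at 1.31 (75 higher, 1 lower of 117).

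Pseudogenes split by kind. Unprocessed pseudogenes, which are decayed gene duplicates, had 105 higher and 3 lower of 174 (median 1.22). Processed pseudogenes, copies made from mRNA, had 352 higher and 101 lower of 700 (median 1.05), and 212 and 150 under the common median. Ribosomal protein pseudogenes lay at both ends, with 57 higher and 40 lower of 128 and a median of 0.47 that was -0.09 under the common median (34 higher, 51 lower). Together they took 0.257% and 0.259% of the nuclear libraries, against 0.516% and 0.479% of the cytoplasmic ones. RPL41P1 averaged 129 ± 8.75 TPM in nucleus and 714 ± 41.6 TPM in cytoplasm (log2 -2.46 ± 0.06, adjusted p = 4.5e-06). RPL23P2 had 34.7 and 28.5 TPM in nucleus, against 1.72 and 0.549 TPM in cytoplasm (3.98 ± 0.29, adjusted p = 1.2e-04). Reads of such copies can be shared with the parent mRNA, so their values are uncertain.

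Genes of small structured RNAs are not polyadenylated as a rule and were near the limit of detection. The 61 tested snRNA genes gave 36 higher and 0 lower, on a median of 5 reads over the 4 libraries. Small nucleolar RNA genes gave 10 higher and 0 lower of 19 on a median of 4 reads, and miscellaneous RNA genes 41 higher and 0 lower of 60 on 6 reads. MicroRNA genes gave 24 higher and 1 lower of 36 on a median of 8 reads. Such low counts let a gene pass the filter through the nucleus alone, so these counts are a description. Without nuclear replicate 2, 1 snRNA gene and 1 small nucleolar RNA gene were lower.

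**Figure D2:**
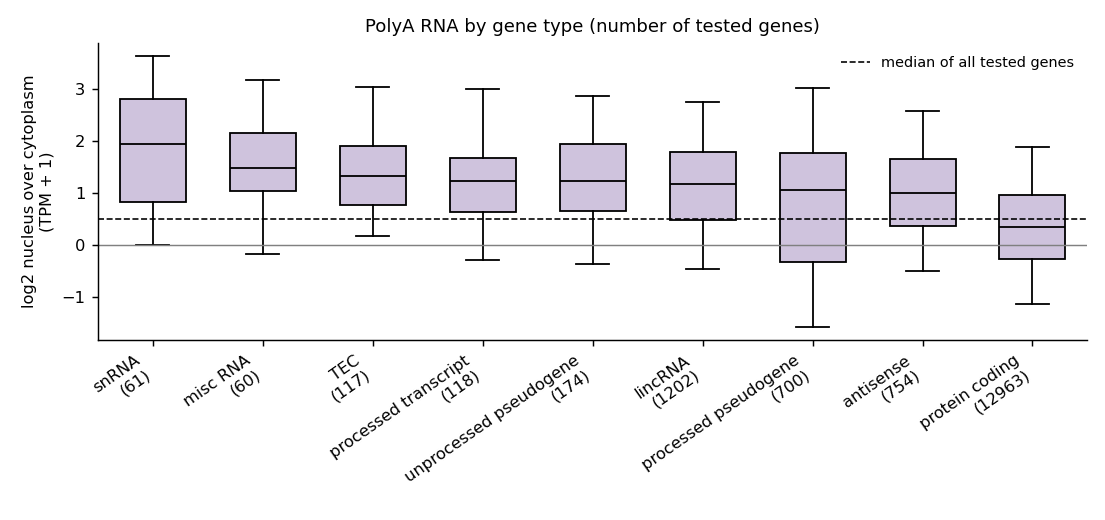
Log2 nucleus over cytoplasm (TPM + 1) of tested genes by gene type, with the number of genes in brackets. Boxes are quartiles with the median, whiskers the 5th to 95th percentile, and the dashed line the median of all tested genes (0.50); of the 9 types shown, protein-coding genes have the lowest median (0.35, negative under a common median) and snRNA genes the highest (1.94).

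The lncRNAs known as nuclear had the highest median of the 21 groups plotted by member. Of 16 listed, 11 were tested, 10 were higher, and their median was 2.41. Under the common median 9 were higher and 0 lower (median 1.86). MALAT1 (chr11:65497688-65506516) had 610 and 617 TPM in nucleus, against 14.5 and 14.6 TPM in cytoplasm (log2 5.30 ± 0.04, adjusted p = 1.8e-06). NEAT1 had 21.5 and 21.0 TPM in nucleus, against 3.34 and 2.84 TPM in cytoplasm (2.45 ± 0.11, adjusted p = 1.3e-05). In both, every nuclear library lay above every cytoplasmic one.

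TUG1, a lncRNA linked to gene repression, had 362 and 362 TPM in nucleus and 75.2 and 77.7 TPM in cytoplasm (2.23 ± 0.04). FTX, a gene of the X inactivation centre, had 31.3 and 31.2 TPM against 2.19 and 2.57 TPM (3.26 ± 0.10). FIRRE, which organises chromosome contacts, had 80.2 and 78.2 TPM in nucleus and 13.6 and 14.5 TPM in cytoplasm (2.41 ± 0.06). MIAT, PURPL, GABPB1-AS1, DLEU2 and SNHG14 also rose, by log2 values of 1.52 to 2.83. PVT1 was the member that missed the fold limit, with 20.7 ± 0.959 TPM in nucleus and 10.4 ± 0.154 TPM in cytoplasm (log2 0.93). KCNQ1OT1 was listed at 0 in all 4 libraries, though it had at least 5 TPM in unfractionated total RNA of day 0.

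LncRNAs known from the cytoplasm were centred lower, with a median of 0.23 over 13 tested genes that the common median turned to -0.32. None was called lower, and 4 were called higher (30.8%, near the 30.0% of all tested genes). NORAD, which binds Pumilio proteins in the cytoplasm, had 388 and 390 TPM in nucleus and 437 and 447 TPM in cytoplasm (log2 -0.19 ± 0.03, adjusted p = 0.0032). DANCR had 302 and 304 TPM against 411 and 388 TPM (-0.40 ± 0.04, adjusted p = 3.5e-04). For both, the fractions did not overlap and the difference stayed under the fold limit. With no fold limit 3631 of the 16667 tested genes were lower in nucleus, so small differences of this kind were common. The members higher in nucleus were GAS5 (2.63), RMST (2.99), which is also known to bind SOX2 in the nucleus, LINC-ROR (1.28) and EPB41L4A-AS1 (1.24). The call of EPB41L4A-AS1, at 2.97 ± 0.438 TPM in nucleus and 0.715 ± 0.523 TPM in cytoplasm, was lost without nuclear replicate 2 (1.13) and without cytoplasmic replicate 2 (0.93), and LINC-ROR and EPB41L4A-AS1 were not called under the common median.

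Hosts of small nucleolar RNAs, whose introns give the snoRNAs and whose spliced RNA is often short-lived, ranged from -0.70 to 3.68 on the log2 scale. Of 24 tested, 13 were higher and 0 lower (median 1.21), and 9 and 2 under the common median. SNHG1 had 2086 and 2028 TPM in nucleus, against 164 and 156 TPM in cytoplasm (3.68 ± 0.04, adjusted p = 1.8e-06). GAS5 had 1438 and 1410 TPM in nucleus and 241 and 217 TPM in cytoplasm (2.63 ± 0.05). SNHG11, SNHG12 and SNHG15 stood at 2.95, 2.72 and 2.82, while SNHG5 and SNHG6 stood at 0.23 and 0.20 and SNHG16 at -0.70. The hosts thus spread widely, and without nuclear replicate 1 the count of lower members was 1.

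Among microRNA host genes 19 of 26 tested were higher and 0 lower (median 1.57), and 12 and 0 under the common median. MIR17HG had 377 and 367 TPM in nucleus, against 15.2 and 15.2 TPM in cytoplasm (log2 4.53 ± 0.05, adjusted p = 1.8e-06). MIR222HG had 41.2 and 40.9 TPM in nucleus and 1.74 and 1.99 TPM in cytoplasm (3.88 ± 0.09). MIR34AHG, the host of a p53-induced microRNA, had 111 and 114 TPM against 7.39 and 6.37 TPM (3.85 ± 0.08). In all 3 hosts the nucleus held the larger level in both libraries. MIR205HG followed at 3.59 ± 0.13 and MIRLET7IHG at 2.76 ± 0.10, and the hosts MIR4713HG and MIR4733HG stood at -0.15 and 0.04.

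LncRNAs marked by expression in embryonic stem cells differed among themselves, with 5 higher and 1 lower of 9 (3 and 3 under the common median). LINC01108 had 151 and 159 TPM in nucleus, against 13.7 and 13.9 TPM in cytoplasm (3.40 ± 0.05, adjusted p = 2.8e-06). LNCPRESS2 had 834 and 829 TPM in nucleus and 280 and 267 TPM in cytoplasm (adjusted p = 4e-06). LNCPRESS1 stood at 308 ± 0.247 TPM in nucleus and 261 ± 3.80 TPM in cytoplasm (0.24 ± 0.04), and LINC00458 at 52.0 ± 2.35 TPM in nucleus and 85.2 ± 1.11 TPM in cytoplasm (-0.70 ± 0.05). LINC00545 was the member called lower, with 1.73 and 3.34 TPM in nucleus and 10.0 and 8.43 TPM in cytoplasm (-1.56 ± 0.24). ESRG was listed at 0, though it had at least 5 TPM in unfractionated total RNA of day 0, so the 0 is not evidence of absence.

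Noncoding RNAs named for a neighbour had medians somewhat below the 1.11 of all lncRNAs. Antisense-named genes gave 162 higher and 12 lower of 365 (median 0.87), and divergent and intronic ones 116 higher and 3 lower of 277 (median 0.88). LINC-numbered genes gave 155 higher and 6 lower of 306 (median 1.05). Under the common median 80 antisense-named genes were higher against 31 lower, 53 against 19 of the divergent and intronic ones, and 80 against 24 of the LINC-numbered ones. Of the divergent and intronic genes, 6 were lower without nuclear replicate 1 and 5 without nuclear replicate 2. SNTG2-AS1 had 950 and 997 TPM in nucleus, against 56.5 and 43.7 TPM in cytoplasm (4.26 ± 0.12). RNASEH1-DT went the other way, with 31.6 and 32.7 TPM in nucleus and 89.0 and 84.8 TPM in cytoplasm (-1.41 ± 0.05, adjusted p = 9.6e-06).

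**Figure D3:**
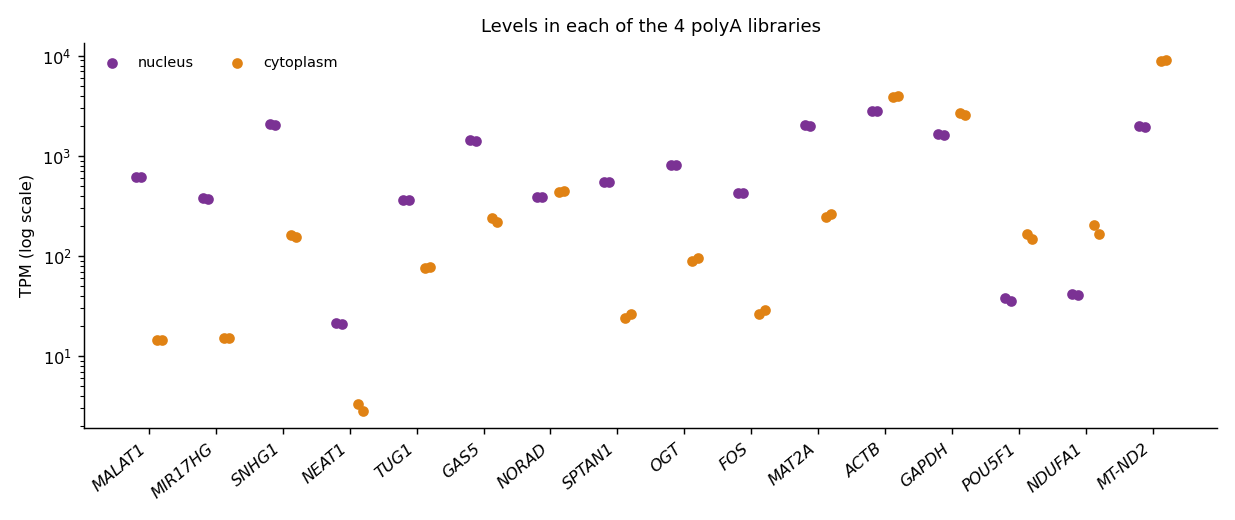
TPM (log scale) of 16 genes in each of the 2 nuclear and 2 cytoplasmic polyA libraries. MALAT1 lies near 614 TPM in nucleus and 14.5 TPM in cytoplasm; the libraries of a fraction lie close together, and NORAD, ACTB and GAPDH are the genes with the smallest distance between fractions.

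The mRNAs known for detained introns leaned to the nucleus. Of 27 tested, 17 were higher and 0 lower (median 1.51), and 13 and 1 under the common median (median 0.96). OGT, the enzyme that adds O-GlcNAc to proteins, had 816 and 806 TPM in nucleus, against 89.2 and 96.5 TPM in cytoplasm (log2 3.11 ± 0.05, adjusted p = 2.6e-06). MAT2A, which makes the methyl donor S-adenosylmethionine, had 2047 and 2016 TPM in nucleus and 245 and 261 TPM in cytoplasm (3.00 ± 0.04). The cyclins CCNL1 and CCNL2 stood at 2.57 and 2.55 and the splicing kinases CLK1 and CLK4 at 2.37 and 1.66. CLK2 and CLK3 (0.84 and 0.48) and OGA (0.81), the enzyme that removes O-GlcNAc, did not reach the fold limit.

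SR and hnRNP mRNAs, which encode splicing regulators, were spread about a lower median, 0.15 over 34 tested (-0.40 under the common median), with 4 higher and 1 lower. SRSF11 had 544 and 540 TPM in nucleus, against 116 and 116 TPM in cytoplasm (2.21 ± 0.03). HNRNPDL and SRSF6 followed at 1.23 and 1.09, and SRSF3 stood at 230 ± 7.21 TPM in nucleus and 416 ± 3.53 TPM in cytoplasm (-0.85 ± 0.04). SRSF2 was listed at 0. Under the common median 1 member was higher and 5 were lower.

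Zinc finger mRNAs of the ZNF family, which encode DNA-binding proteins, gave 158 higher and 2 lower of 380 (median 0.85), and 67 higher and 14 lower under the common median. The lower count was 1 without nuclear replicate 2 or without cytoplasmic replicate 1. ZNF221 had 25.6 and 22.7 TPM in nucleus, against 0.801 and 2.30 TPM in cytoplasm (3.37 ± 0.30). ZNF519 (2.95), ZNF117 (2.89) and ZNF292 (2.67) lay near it. Chromatin enzyme mRNAs gave 36 higher and 0 lower of 77 (median 0.96), and 14 higher and 4 lower under the common median. The H3K4 methyltransferases led that group, KMT2B with 174 and 180 TPM in nucleus and 24.4 and 26.7 TPM in cytoplasm (2.74 ± 0.06) and KMT2A at 2.50 ± 0.08, while the remodeller subunits SMARCD1 and SMARCD2 stood at -0.53 and -0.70.

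Collagen and laminin mRNAs, translated at the endoplasmic reticulum, had the highest share called among the mRNA groups described here. Of 44 tested, 36 were higher and 0 lower, and the median was 1.70. Under the common median 25 were higher and 0 lower (median 1.14). LAMA5 had 292 and 300 TPM in nucleus, against 44.3 and 49.9 TPM in cytoplasm (log2 2.63 ± 0.07, adjusted p = 4.3e-06). LAMA1, COL4A5 and LAMB2 stood at 2.52, 2.53 and 2.33, and COL26A1 had the lowest value, 0.50. Solute carriers, mostly membrane transporters, gave 80 higher and 5 lower of 246 (median 0.70). The share higher, 32.5%, was near the 30.0% of all tested genes. The mitochondrial carriers SLC25 among them gave 9 higher (21.4%) and 5 lower of 42 (median 0.11, -0.45 under the common median). The others gave 71 higher (34.8%) and 0 lower of 204 (median 0.77). Under the common median SLC25 genes gave 6 higher and 11 lower and the others 24 higher and 6 lower, so lower genes were then found in both. SLC25A5, the adenine nucleotide carrier, had 431 and 402 TPM in nucleus and 1120 and 1097 TPM in cytoplasm (-1.41 ± 0.04). Whether nuclear fractions carried membrane-bound RNA was not tested.

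Immediate early mRNAs, induced within minutes of a stimulus and unstable, gave 9 higher (39.1%) and 1 lower (4.35%) of 23 (median 0.77). Of all tested genes 30.0% were higher and 6.22% lower. Under the common median 5 members were higher and 2 lower. FOS had 426 and 426 TPM in nucleus, against 26.4 and 28.9 TPM in cytoplasm (3.90 ± 0.06, adjusted p = 2.4e-06). EGR1 had 354 and 368 TPM in nucleus and 46.2 and 47.3 TPM in cytoplasm (2.92 ± 0.04). ZFP36, CCN1 and CCN2 stood at 2.57, 2.24 and 2.15. MYC, with 149 ± 8.05 TPM in nucleus and 135 ± 0.864 TPM in cytoplasm (0.14 ± 0.05), was not called, and FOSL1 was the member called lower (-1.11 ± 0.16), a call lost without nuclear replicate 1 (-0.87).

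Several groups of housekeeping mRNAs were lower in nucleus. Of 82 mRNAs for cytosolic ribosomal proteins, 28 were lower and 2 higher (median -0.77), against 6.22% of all genes lower. Under the common median 57 were lower, against 16.9% of all genes. RPS12 had 662 and 656 TPM in nucleus, against 2183 and 1954 TPM in cytoplasm (-1.65 ± 0.05, adjusted p = 6.9e-06). RPS19 stood at -1.43, while RPL4 stood at 0.07. Members were thus not uniform. RPL35A and RPS4X were listed at 0, and genes with many pseudogene copies are uncertain.

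Nuclear-encoded mRNAs of the respiratory chain gave 2 higher and 37 lower of 71, the lowest median of the nuclear-encoded groups (-1.09). NDUFA1, a complex I subunit, had 41.4 and 40.8 TPM in nucleus, against 204 and 167 TPM in cytoplasm (-2.14 ± 0.10, adjusted p = 1.6e-05). COX6B1 of complex IV had 120 and 117 TPM in nucleus and 444 and 407 TPM in cytoplasm (-1.83 ± 0.05). NDUFB1 (1.31 ± 0.07) was an exception. The count of higher members was 1 without nuclear replicate 1 and 0 under the common median. Of 70 mitoribosomal mRNAs, 31 were lower and 2 higher (median -0.86), and MRPL51 had 71.9 and 81.4 TPM in nucleus and 328 and 290 TPM in cytoplasm. Proteasome subunit mRNAs had 0 higher and 9 lower of 32 (median -0.79), led by PSMD8 (-1.58 ± 0.04). Under the common median 55 respiratory chain, 53 mitoribosomal and 23 proteasome mRNAs were lower.

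Glycolytic enzyme mRNAs gave 1 higher and 4 lower of 16 (median -0.53). PGAM1 had 463 and 474 TPM in nucleus, against 1313 and 1298 TPM in cytoplasm (-1.48 ± 0.03). GAPDH, a usual cytoplasmic marker, had 1662 and 1612 TPM in nucleus and 2664 and 2577 TPM in cytoplasm (-0.68 ± 0.03, adjusted p = 1.5e-05), below the fold limit. ACTB was closer still, with 2807 and 2799 TPM against 3895 and 3941 TPM (-0.48 ± 0.02). The neuronal enolase ENO2 was the member called higher (1.19 ± 0.04), and under the common median 0 were higher and 9 lower. Genes with EIF or EEF symbols, mostly translation factors, ran both ways (7 higher, 14 lower of 62, median -0.36, with 2 higher and 28 lower under the common median), with EIF3A at 1.83 ± 0.04 and the inhibitor EIF4EBP1 at -2.21 ± 0.06.

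Transcripts of the mitochondrial genome are made and kept inside the organelle. Of 13 mitochondrial-encoded mRNAs, 10 were lower in nucleus and 0 higher (median -1.38), with 13 lower under the common median and 2 lower under quantile normalisation (median -0.40). MT-ND2 had 1999 and 1941 TPM in nucleus, against 8949 and 9055 TPM in cytoplasm (log2 -2.19 ± 0.02, adjusted p = 1.8e-06). MT-CO1, MT-ND3 and MT-ND5 were the members short of the fold limit, at -0.72, -0.73 and -0.66. Mitochondrial tRNA genes, on a median of 55 reads over the 4 libraries, gave 10 higher and 3 lower of 21 (median 1.25). Under the common median 9 were higher and 8 lower. By summed TPM these tRNA genes were lower in nucleus, as the mRNAs were. They took 0.897% and 0.865% of the nuclear libraries, against 1.10% and 0.985% of the cytoplasmic ones. MT-TK among them had 61.1 and 34.3 TPM in nucleus, on an estimated 12 and 7 reads, and was listed at 0 in both cytoplasmic libraries. In total RNA of the same day, other libraries and another table, all 13 mRNAs were instead higher in soluble nuclear extract (SNE) than in cytoplasmic extract (CE), with a median of 3.54. The tables were normalized separately, so the pairs of fractions are set side by side and not tested against each other.

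**Figure D4:**
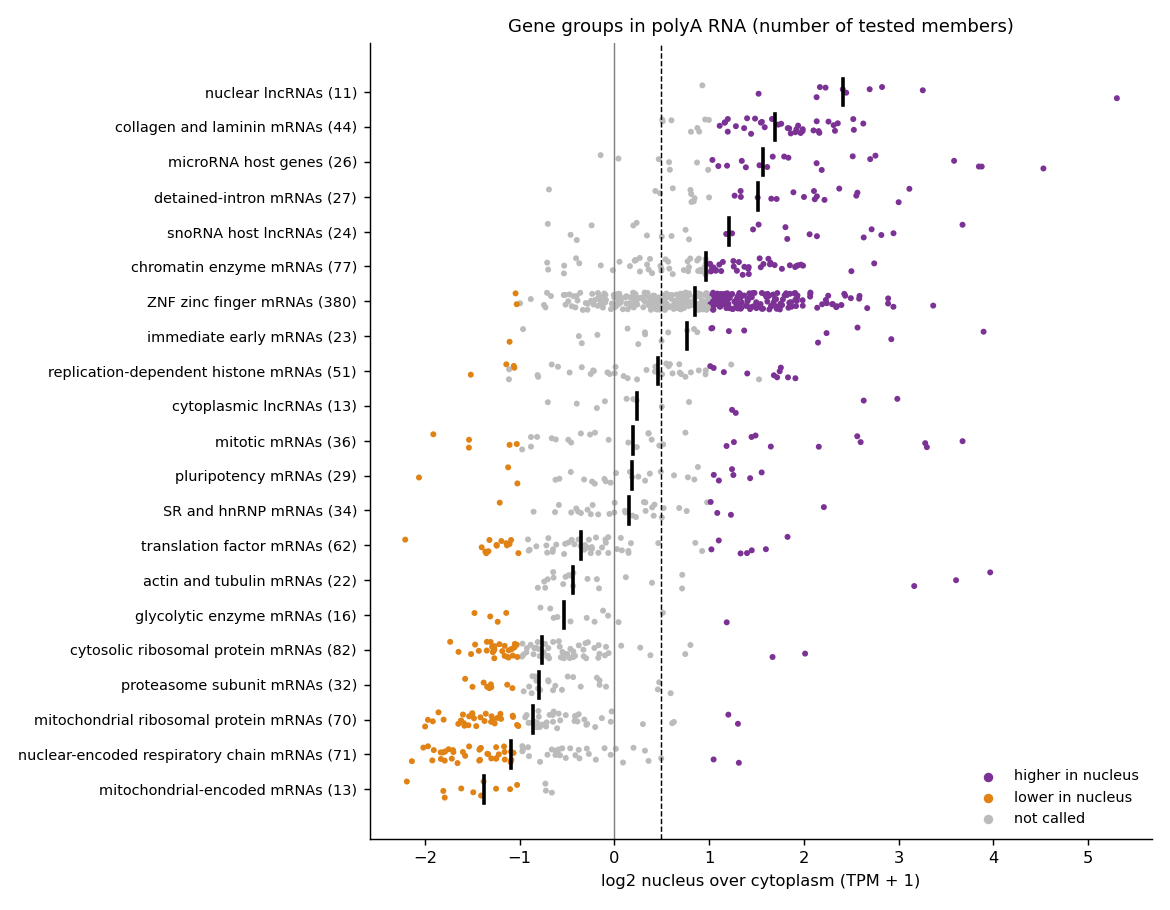
Log2 nucleus over cytoplasm (TPM + 1) of every tested member of 21 gene groups, number of members in brackets, ordered by median (black bar); the dashed line is the median of all tested genes. Purple points were called higher and orange points lower in nucleus; nuclear lncRNAs have the highest median (2.41) and mitochondrial-encoded mRNAs the lowest (-1.38), and medians between 0 and 0.50 turn negative under a common median.

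Medians of protein-coding genes rose with the length of the longest annotated transcript, though some of the groups above did not simply follow it. Protein-coding genes whose longest annotated transcript is under 1 kb gave 59 higher and 153 lower of 369 (median -0.77). The median rose through -0.36 at 1 to 2 kb, 0.07 at 2 to 3 kb, 0.31 at 3 to 4 kb, 0.50 at 4 to 6 kb, 0.70 at 6 to 8 kb and 0.88 at 8 to 12 kb. Above 12 kb it was 1.19, with 159 higher and 1 lower of 277. Across 12949 genes, Pearson's r of log2 length with the log2 value was 0.39. It was 0.04 for GC content, and 0.10 for length among 2146 lncRNAs. Genes share libraries and are not independent, so these are descriptions.

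Long mRNAs of cytoskeletal proteins were among the protein-coding genes with the largest folds. SPTAN1, a spectrin of the membrane skeleton, had 548 and 547 TPM in nucleus and 24.3 and 26.5 TPM in cytoplasm (log2 4.38 ± 0.06, adjusted p = 2.1e-06). The linkers DST, PLEC and MACF1 stood at 3.97, 3.61 and 3.17, whereas the actin mRNAs ACTB and ACTG1 stood at -0.48 and -0.74 and were not called.

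Mitotic mRNAs also differed by length. The 4 members of 8 to 12 kb were all higher, with a median of 2.93, and the 7 members of 1 to 2 kb gave 0 higher and 2 lower, with a median of -0.62. ASPM, a spindle pole protein, had 300 and 297 TPM in nucleus, against 21.4 and 23.6 TPM in cytoplasm (3.68 ± 0.06). CENPF, of the kinetochore, had 621 and 618 TPM in nucleus and 58.1 and 66.2 TPM in cytoplasm (3.30 ± 0.07), and the proliferation marker MKI67 stood at 3.28 ± 0.06. CKS2 had 313 and 310 TPM in nucleus and 997 and 820 TPM in cytoplasm (-1.53 ± 0.09), and BIRC5 (survivin) stood at -1.91 ± 0.05. Over all 36 members (median 0.19), 11 were higher and 5 lower, and 7 and 13 under the common median. The share higher, 30.6%, was near the 30.0% of all tested genes, and 13.9% were lower against 6.22%.

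Some groups still differed at like length of the longest annotated transcript. Which transcript of a gene was present was not tested, so the mRNAs themselves may differ in length. Between 3 and 4 kb, where all protein-coding genes had a median of 0.31, ZNF mRNAs had 0.71 (81 genes), detained-intron mRNAs 1.27 (5 genes), and respiratory chain mRNAs -0.62 (7 genes). Between 2 and 3 kb, where the median was 0.07, the same groups had 0.63 (86 genes), 1.42 (4 genes) and -0.72 (10 genes). Other groups lay closer to their length class. SR and hnRNP mRNAs of 3 to 4 kb had 0.33 (7 genes), and chromatin enzyme mRNAs 0.42 (6 genes). At 6 to 8 kb chromatin enzyme mRNAs had 0.62 (15 genes) against 0.70, but at 4 to 6 kb 0.91 (22 genes) against 0.50. Genes with an annotated retained-intron transcript had a median of 0.42 (7242 genes) and those without 0.26 (5707 genes), but the order depended on length. The medians were -1.02 and -0.59 under 1 kb, -0.37 and -0.35 at 1 to 2 kb, and 0.55 and 0.44 at 4 to 6 kb.

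Intron length behaved differently. Across genes, Spearman's rho of the log2 value with summed intron length was 0.12 in polyA RNA, against 0.39 with transcript length. In total RNA, SNE against CE, it was 0.69 with intron length and 0.40 with transcript length. Among polyA mRNAs of 4 to 6 kb the median was 0.78 without introns (39 genes), 0.63 with 5 to 20 kb of intron (663 genes) and 0.41 with over 80 kb (933 genes). Those of these genes with a value in total RNA stood at -1.29, 0.10 and 1.65. At that length the medians fell with intron length in polyA RNA and climbed with it in total RNA. The polyA medians also fell between under 5 kb and over 80 kb of intron in 3 shorter classes. They went from -0.19 to -0.50 at 1 to 2 kb, and from 0.33 to -0.17 at 2 to 3 kb. At 3 to 4 kb they went from 0.46 to 0.22. At 6 to 8 kb the polyA median was 0.85 without introns (10 genes). With introns it rose there, 0.55 with under 5 kb (42 genes), 0.61, 0.68 and 0.75 with over 80 kb (623 genes). Over all lengths the polyA medians were 0.21 with under 5 kb and 0.52 with over 80 kb.

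**Figure D5:**
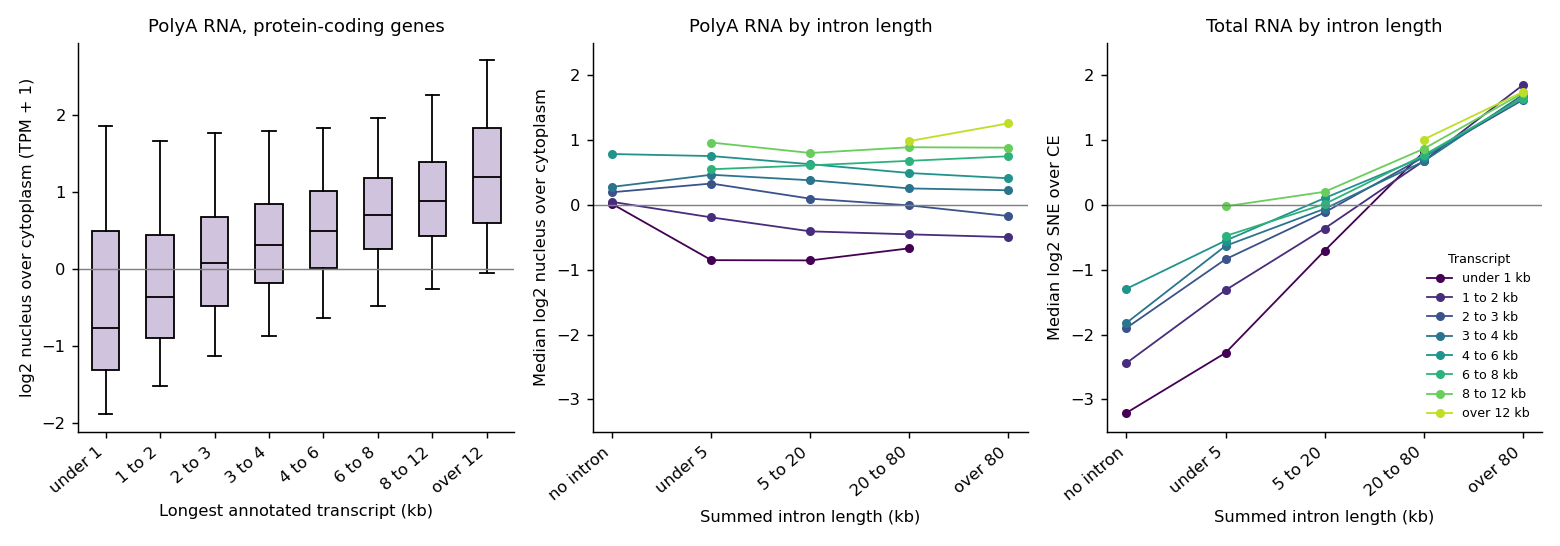
Left, log2 nucleus over cytoplasm of protein-coding genes by longest transcript (boxes are quartiles, whiskers the 5th to 95th percentile); middle and right, median by summed intron length within each transcript length, in polyA RNA and in total RNA (SNE over CE), for classes of at least 20 genes. Total RNA medians climb with intron length in every transcript length class, and polyA medians, which separate by transcript length, differ less over introns.

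Most replication-dependent histone mRNAs carry no poly(A) tail but a terminal stem-loop. Their genes gave 10 higher (19.6%) and 4 lower (7.84%) of 51 tested, against 30.0% and 6.22% of all tested genes. The median was 0.46, on a median of 48.5 reads. Under the common median it was -0.10, with 6 higher and 8 lower. A search of annotated transcripts for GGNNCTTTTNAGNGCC, on the sense strand, found the loop in 23 tested members, and in 0.0788% of all genes of the transcript file. The reverse complement was found in 12 genes. These members gave 6 higher and 2 lower, and the 28 without a match 4 higher and 2 lower. A member of each direction, chosen after its values were seen, is shown, with the loop in capitals (GRCh38, chr12:14770719-14770744, minus strand, for H4C16 and chr6:26124664-26124689, plus strand, for H2AC6).
H4C16: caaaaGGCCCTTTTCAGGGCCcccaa
H2AC6: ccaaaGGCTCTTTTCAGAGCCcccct
H4C16 had 9.82 and 10.7 TPM in nucleus, against 2.06 and 2.24 TPM in cytoplasm (1.83 ± 0.12), and H2AC6 had 15.0 and 12.1 TPM in nucleus and 44.5 and 36.7 TPM in cytoplasm (-1.52 ± 0.13). The motif was thus present in members that differed in direction. It lay 1510 bases before the annotated end of H4C16 and 1128 bases before that of H2AC6. A match therefore does not show where the captured RNA ended. Whether members without a match lack a loop was not tested, so the 2 sets cannot be read as genes with and without it. In total RNA, 32 of 49 histone genes were lower in SNE than in CE and 0 higher (median -3.15).

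Markers of the cells were checked in the same libraries. Of 30 pluripotency genes 29 were tested, with 6 higher (20.7%) and 3 lower (10.3%), against 30.0% and 6.22% of all tested genes. Their median was 0.19 (-0.37 under the common median). POU5F1, the core factor OCT4, had 38.3 and 35.4 TPM in nucleus, against 166 and 148 TPM in cytoplasm (log2 -2.06 ± 0.07, adjusted p = 8.1e-06). LIN28A, an RNA-binding protein, stood at -1.12 ± 0.03, while TERT (1.55 ± 0.06), ZSCAN10 (1.43 ± 0.04) and L1TD1 (1.26 ± 0.03) were higher. Under the common median, 0 were higher and 6 lower. NANOG had 69.9 ± 2.26 TPM in nucleus and 105 ± 1.10 TPM in cytoplasm. SOX2, which lies inside a gene that is not protein-coding, was listed at 0. It was not among the genes with at least 5 TPM in unfractionated total RNA, so the check of nested genes below does not cover it. Of the genes that mark other lineages, 4 of 11 mesoderm, 1 of 7 neural and 2 of 6 endoderm genes were tested, and GSC was the member called (1.44), a call lost without nuclear replicate 1 (1.53), nuclear replicate 2 (1.35) or cytoplasmic replicate 1 (0.97). The highest nuclear level was that of TBX6, at 9.84 ± 1.71 TPM in nucleus and 7.72 ± 0.0168 TPM in cytoplasm.

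Nested genes limit the table. Of 101 protein-coding genes that lie in an intron of another protein-coding gene on the opposite strand and had at least 5 TPM in unfractionated total RNA, 97 were listed at 0 in all 4 polyA libraries, against 92 of 9447 protein-coding genes at that level that lie inside no other protein-coding gene. The same held for 104 of 105 such lncRNAs and 106 of 107 such pseudogenes. SRSF2, RPL35A and SMC4 are among them. A value of 0 for a nested gene is therefore not evidence of absence. How reads of partly overlapping neighbours were assigned is not given in the sources used here, so CYSTM1 (-2.47 ± 0.10) and PFDN1 (-2.35 ± 0.10), which overlap on opposite strands, are uncertain.

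Total RNA of the same day was fitted separately. SNE against CE had 24735 genes tested, 30.0% higher and 8.66% lower, and across the 15775 genes in both tables Pearson's r of the log2 values was 0.50. Of 4583 genes higher in polyA nucleus with a value in both, 2413 were also higher in SNE, out of 5620 higher in SNE among the genes in both, and 48 were lower. Of 991 genes lower in polyA nucleus, 514 were also lower in SNE, out of 1802, and 103 were higher. SPTAN1, at 4.38 in polyA RNA, stood at 0.58 in total RNA, while MALAT1 stood at 2.13.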

How the data were processed

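The deposited polyA table holds TPM made by the authors, 1 column per library, read as TPM because each column sums to 1000000. The submitters' processing notes name hg38 as build and Salmon 1.3.0, featureCounts 1.6.2, HISAT2 2.0.5 and GATK as tools, whose roles are not given in the sources used here. Reads were estimated from TPM times exon length, and of the values that came to 50 reads or fewer, 97.4% to 97.7% were whole to within 0.05. Genes at 1 TPM or more in 2 of 4 libraries were fitted in limma 3.58.1 (R 4.3.3) on log2(TPM + 1) with a trended, robust prior and 2 residual degrees of freedom. The fit was tested on simulated data. Gene lists, members and tests were chosen with earlier results of these data known. Named genes were the largest changes at 10 TPM or more by gene type, and the extremes or any member of a list. Lengths, coordinates and transcripts come from GENCODE 29, which held 58216 of the 58336 identifiers. Current symbols were found for 57754. Total RNA was fitted over its 36 libraries. Some genes are not reported here.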

Additional observations from a re-analysis of the deposited data

How the results depend on the processing

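The counts depended on how libraries were scaled. The 5005 genes higher and 1037 lower became 2397 and 2809 under a common median and 2346 and 2421 under quantile normalisation. Limma's voom on rebuilt reads, chosen after seeing the data, gave 2274 lower. Fewer genes were higher with log2(TPM + 5), 2675, and at a mean of at least 5 TPM, 3203, where fewer genes were tested. With no fold limit 9422 were higher and 3631 lower. Leaving out a library gave 4848 to 5132 higher and 958 to 1086 lower. The protein-coding share, 4.47 percentage points higher in nucleus, turned to -3.44 without the mitochondrial genome. The lncRNA difference of 2.57 points became 2.61 without it and 2.51 over tested genes, and the pseudogene difference of 0.414 became 0.259 and 0.360. Of 423 named genes, MT-ND4L turned direction, with 0.0182 under quantile normalisation in place of -1.25, and under the common median 37 of these genes lost their call, ENO2 and TERT among them, and 73 gained one. The cause of these shifts was not tested. Deviations of samples with the same number had an r of 0.0284, which cannot tell whether those samples came from the same culture. A replicate block gave 4990 higher and 1035 lower.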
